A study of Bos taurus with 56 samples.

Results

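Epithelium of the contralateral isthmus, the part of the oviduct next to the uterus on the side of the ovary without the corpus luteum, was compared here between post-partum cows that did not lactate and heifers. The comparison took the 5 libraries of non-lactating cows and the 5 libraries of heifers that the labels assign to that tissue, 10 of the 56 libraries of the series. The non-lactating animals were Holstein cows after a first calving that were dried off at calving and never milked, sampled about 60 days post-partum. The heifers were Holsteins of similar age that had never calved. Both groups were synchronized with an intravaginal progesterone device, a prostaglandin F2 alpha analogue and buserelin, were not inseminated, and were slaughtered on Day 3 after oestrus. Pregnancy, calving and the unmilked post-partum period cannot be told apart in this comparison, since every cow had gone through all of them and no heifer through any. The epithelium was collected by scraping and sequenced in bulk, so that fewer cells of a type and less RNA per cell cannot be told apart in any value below. Animals are named by letter within a group (cows A to E, heifers A to E), and the same letter on the ipsilateral side stands for the same animal number. The numbers in the count table conflict for 2 of 14 animals. Cow C is named non-lactating in 3 of its 4 columns, both isthmus columns among them, and lactating in the column of the ipsilateral ampulla, and a lactating cow shows the reverse. Cow C was kept as its isthmus columns name it, and some of the results that rest on it are given without it as well.

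The isthmus holds spermatozoa before fertilization and passes the embryo on to the uterus. Its lining is made of ciliated cells, which move fluid and cells with beating cilia, and of secretory cells, which release glycoproteins such as oviductin (OVGP1), ions and nutrients into the lumen. Only the ipsilateral oviduct receives the oocyte and the early embryo, whereas the contralateral one is bathed by the same circulation without lying beside the corpus luteum.

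Depth on annotated genes was 2238157 to 4990519 counts in the heifers (median 4152894) and 1901454 to 5274847 in the cows (median 4130991), which was 10.2% to 12.4% of the reads tallied by the counting program. The lowest totals were those of cow B and heifer B. Expression is given in CPM, that is, read counts scaled to library size, with trimmed mean of M-values (TMM) factors over the isthmus libraries. The 19 ciliated markers measured summed to between 8521 and 11992 CPM and the 13 secretory markers to between 3127 and 27241 CPM in the 10 libraries. Smooth muscle markers summed to at most 110 CPM, T and NK cell markers to at most 92.3 CPM and red blood cell markers to at most 1.42 CPM. Mesothelial markers summed to 32.7 to 348 CPM in the cows and 31.7 to 449 CPM in the heifers, and fibroblast markers to at most 366 CPM, in cow A. Markers of cumulus and granulosa cells summed to at most 8.18 CPM. Of the red blood cell markers 3 of 7 had no read in any of the 10 libraries. Members of the other lists of non-epithelial cells were read individually where they passed the filter. Of these, 4 of 5 smooth muscle, 4 of 4 endothelial, 1 of 3 mesothelial, 3 of 5 fibroblast and 0 of 2 neutrophil markers were higher in the cows. TEK, an endothelial receptor, and the fibroblast collagens COL1A2 and COL3A1 were the only ones of these at an unadjusted p under 0.05. All were higher (4.48% over all genes), and TEK averaged 12.5 against 8.51 CPM.

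Principal components of the isthmus libraries showed which libraries stood apart. The first component (23.2% of the variance) ordered the libraries largely by side. Ipsilateral libraries lay between -34.7 and -3.52. Heifer C, at a score of -4.76, lay within this range. Heifer B, at 5.48, lay between this range and the other 8 contralateral libraries of both groups, which were at 13.96 to 24.8. The second component (18.9%) set apart the contralateral libraries of heifer C (39.5), cow C (36.6) and heifer A (27.4), and also the ipsilateral library of heifer A (35.9). Among the 10 contralateral libraries compared, those of heifer C, cow C and heifer A also held the least OVGP1, the oviduct-specific glycoprotein of secretory cells. OVGP1 was at 37.5 CPM in cow C and at 96.2 CPM in heifer C, against 9474 to 15332 CPM in the other cows and 3065 to 18499 CPM in the other heifers. The groups overlapped fully for OVGP1, with a log2 difference of 0.18 ± 1.12 (SE). For some of the results that rest on these libraries, values without them are given below as well.

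**Figure D1:**
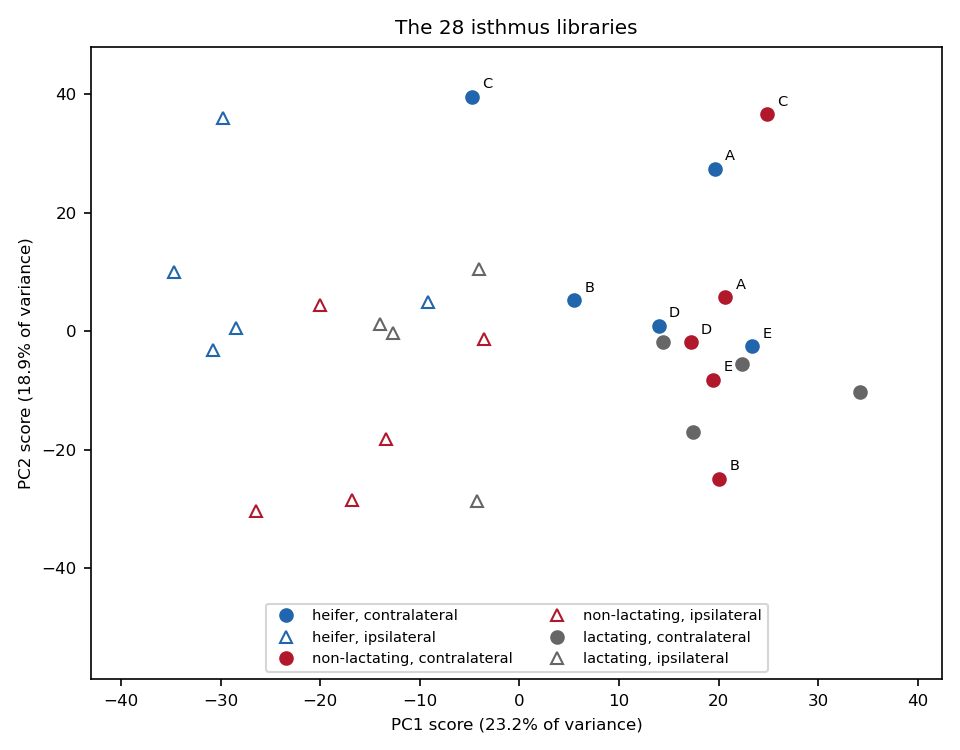
Scores of the 28 isthmus libraries on the first and second principal components of log2 CPM, with circles for contralateral and triangles for ipsilateral libraries and letters for the 10 animals compared. Heifer C (-4.76) and heifer B (5.48) lie leftmost among the circles, and heifer C, cow C and heifer A lie highest among the circles. The ipsilateral library of heifer A (a triangle) lies as high, at 35.9.

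No contralateral isthmus gene was called between the cows and the heifers by the quasi-likelihood test of edgeR, with p-values adjusted by the method of Benjamini and Hochberg. Of 13512 genes with enough counts to test, 0 passed an adjusted p of 0.05 (0%), and the smallest adjusted p was 0.265. Genes with an edgeR p below 0.05 before adjustment numbered 1240 (9.18%), of which 605 were higher (4.48%) and 635 lower (4.7%) in the cows. Each library came from a different animal within its group, so these p-values measure the spread between animals. The 5 cows and the 5 heifers did not overlap in 190 genes (1.41%), with the cows above in 94 (0.696%) and below in 96 (0.71%). The median SE of a log2 difference was 0.18, and 168 genes differed by more than 1 on the log2 scale. DESeq2's Wald test, run on the same counts, called 36 of the 15658 genes to which it gave an adjusted p (0.23%), 10 higher and 26 lower in the cows. Of these 36 genes, 5 had counts too low to enter the edgeR test, and 27 did not overlap between groups. Without heifers B and C, the genes at an unadjusted p under 0.05 numbered 725, and without the shallowest library of each group they numbered 824; edgeR called 0 genes in both cases. Without cow C, edgeR called 4 genes, DAB2, LAMA2, LOC101904210 and LOC101904278, and without cow C and heifer C together it called the last 3 of these. Without cow C, 1524 genes were at an unadjusted p under 0.05, and the 20 leading genes described below kept their direction, with adjusted p-values of 0.0837 to 0.286 by edgeR. The leading genes below, those of smallest p in each direction, are therefore described by their values.

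Among genes lower in the cows, FMNL2, a formin that assembles actin filaments at the cell edge, had the smallest p. It was at 6.47, 12.9, 9.90, 14.4 and 7.61 CPM in cows A to E and at 31.0, 22.8, 23.9, 35.9 and 26.6 CPM in heifers A to E. Every cow was below every heifer. The log2 difference was -1.48 ± 0.23 (SE), with an adjusted p of 0.265 by edgeR and 2.21e-05 by DESeq2. CHKA, the choline kinase that begins phosphatidylcholine synthesis, was at 16.7, 13.4, 18.7, 15.2 and 18.1 CPM in the cows and at 26.8, 29.5, 30.8, 26.3 and 27.3 CPM in the heifers. Its groups did not overlap and lay within narrow ranges, with a log2 difference of -0.76 ± 0.12 (SE; edgeR adjusted p = 0.265, DESeq2 adjusted p = 0.00507). D2HGDH, a mitochondrial dehydrogenase of D-2-hydroxyglutarate, averaged 29.8 ± 4.73 CPM in the cows and 46.7 ± 2.62 CPM in the heifers (SD, n = 5 each). Its groups did not overlap either, and DESeq2 gave an adjusted p of 0.00557.

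Several of the genes lower in the cows were highest in heifers B and C. GJB5, a connexin of gap junctions, was at 39.7, 18.1, 28.4, 30.1 and 27.8 CPM in cows A to E and at 64.7, 112, 116, 42.3 and 47.7 CPM in heifers A to E. The groups did not overlap, heifers B and C stood well above the other heifers, and without them the log2 difference moved from -1.38 to -0.81. SIK1, a salt-inducible kinase that restrains CREB coactivators, was at 70.6, 39.3, 47.8, 56.7 and 38.3 CPM in the cows and at 110, 162, 186, 68.8 and 95.8 CPM in the heifers. Cow A and heifer D overlapped by a small margin, and the log2 difference of -1.29 ± 0.26 (SE) moved to -0.85 without heifers B and C. CAV1, the main protein of caveolae, was at 32.0, 24.8, 32.3, 34.8 and 30.4 CPM in the cows and at 50.2, 64.9, 77.1, 46.6 and 38.2 CPM in the heifers. The groups did not overlap, and the log2 difference was -0.83 ± 0.18 (SE), and -0.53 without heifers B and C. ARMC12, for which the log2 difference was -0.87, was also highest in heifers B and C (96.2 and 113 CPM), overlapped through cow D (71.1 CPM) and moved to -0.65 without them. The log2 differences of FMNL2 and CHKA moved less, to -1.64 and -0.70 without the same heifers. On the first component heifers B and C were also the contralateral libraries with the lowest scores, heifer C within the ipsilateral range and heifer B above it. The part of that position in these values was not tested.

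Other leading genes of this direction included a cytokine receptor chain and a nucleotide receptor. FAM46A, a poly(A) polymerase family member, averaged 232 ± 21.8 CPM in the cows and 362 ± 68.0 CPM in the heifers (SD, n = 5 each) with no overlap. IFNAR1, a chain of the type I interferon receptor, averaged 46.3 ± 2.35 against 65.5 ± 9.04 CPM (SD, n = 5 each), also without overlap. P2RY2, a receptor for extracellular ATP and UTP, averaged 21.6 ± 6.61 against 40.3 ± 8.63 CPM (SD, n = 5 each), with cow D (33.2 CPM) inside the range of the heifers. All 10 leading genes lower in the cows passed DESeq2's threshold, with adjusted p-values of 2.21e-05 to 0.0491.

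Among genes higher in the cows, SRGAP3, a GTPase-activating protein of the slit-robo pathway, had the smallest p. It was at 165, 160, 161, 197 and 149 CPM in cows A to E and at 117, 123, 109, 117 and 110 CPM in heifers A to E. Every cow was above every heifer, with a log2 difference of 0.53 ± 0.09 (SE; edgeR adjusted p = 0.396, DESeq2 adjusted p = 0.0019). MAP4K4, a kinase upstream of JNK signalling, was at 130, 106, 141, 124 and 123 CPM in the cows and at 93.6, 77.9, 88.4, 89.1 and 103 CPM in the heifers. The lowest cow, B, and the highest heifer, E, were close to each other without overlapping, and the log2 difference was 0.47 ± 0.10 (SE). TGFBR2, the type II receptor of TGF-beta, was at 27.4, 27.4, 27.1, 27.7 and 31.9 CPM in the cows and at 22.0, 19.7, 21.1, 19.7 and 17.6 CPM in the heifers. The cows were above all heifers, but the adjusted p was 0.416 by edgeR and 0.153 by DESeq2.

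The other leading genes higher in the cows differed by 0.49 to 0.88 on the log2 scale. TRIP6, a LIM domain adaptor of focal adhesions, averaged 17.8 ± 2.89 CPM in the cows and 9.504 ± 1.93 CPM in the heifers (SD, n = 5 each). FAM81A averaged 69.7 ± 7.97 against 48.9 ± 3.29 CPM and LRRC36 149 ± 21.4 against 104 ± 7.62 CPM (SD, n = 5 each), the latter with cow C (114 CPM) just inside the range of the heifers. SKP2, the F-box protein that marks cell cycle inhibitors for degradation, averaged 33.3 ± 6.69 against 21.1 ± 3.07 CPM (SD, n = 5 each) and did not overlap between groups. GLT8D1 and TBC1D7, a subunit of the TSC complex, did not overlap either, and PXYLP1 did, through cow D (30.8 CPM). Of the 10, SRGAP3, FAM81A, MAP4K4, TRIP6 and LRRC36 passed DESeq2's threshold.

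**Figure D2:**
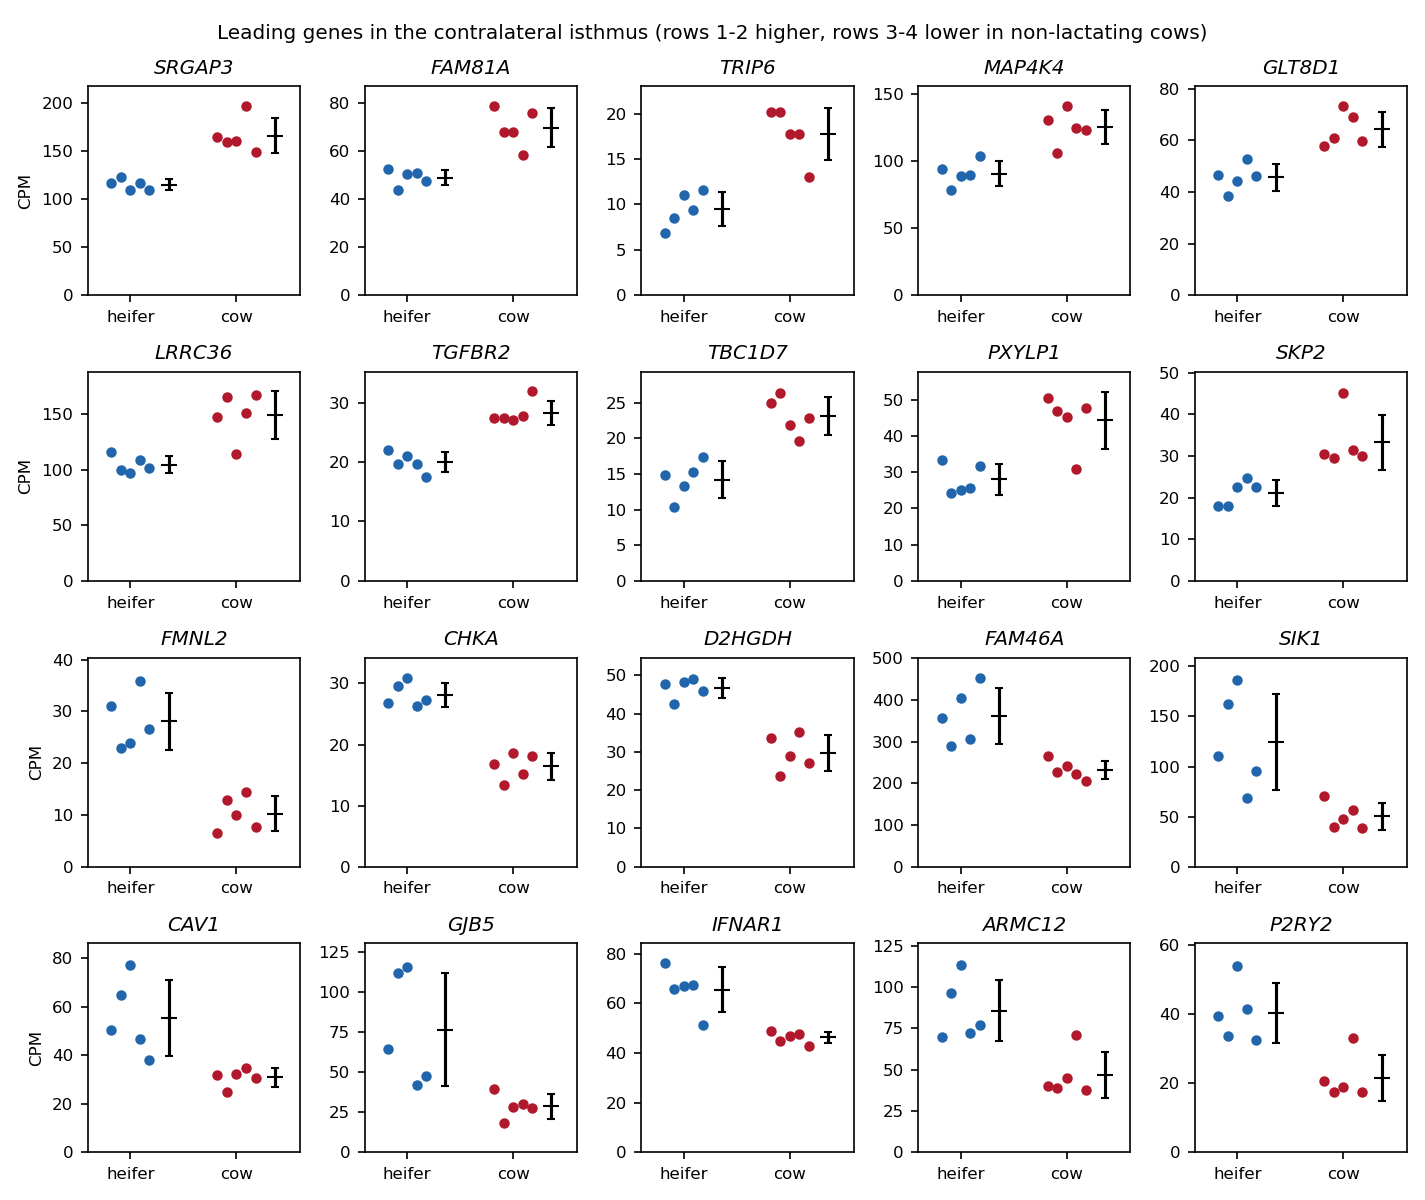
Expression (CPM, linear axis from 0) of the 10 genes of smallest p in each direction, with heifers in blue and non-lactating cows in red, animals A to E from left to right and black bars for mean ± SD. SRGAP3, FMNL2 and CHKA show groups with no overlap, whereas SIK1, CAV1 and GJB5 are highest in heifers B and C.

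Among the 5 genes called by DESeq2 at counts too low for edgeR, 3 were higher in the cows. CXCL10, a chemokine induced by interferon, had 32, 2, 17, 37 and 8 reads in cows A to E and 3, 2, 1, 2 and 0 reads in heifers A to E. Scaled to depth, every cow (1.03 to 9.67 CPM) lay above or level with the highest heifer, at 1.03 CPM, and DESeq2 gave an adjusted p of 0.0304. BOLA-DQB, a class II histocompatibility chain, had 0, 8, 10, 22 and 14 reads in the cows and 0 reads in each heifer (DESeq2 adjusted p = 0.0155). Cow A was thus like the heifers, and reads of this gene may be shared with near-identical copies of the family, so that the value is uncertain. DAB2, an endocytic adaptor, had 21, 10, 12, 23 and 19 reads in the cows and 2, 2, 5, 3 and 4 in the heifers (DESeq2 adjusted p = 0.0155). The other 2 genes of this kind, LOC101902944 and LOC785161, were lower in the cows, which had 0 reads and 1 read of them in all. CXCL10 is among the genes named in every case, and the other 4 were named after their values were seen.

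Ciliated cell markers all pointed the same way. All 19 measured markers had a positive log2 difference, with a median of 0.27, whereas over all genes 6993 of 13512 were higher in the cows and the median was 0.01. Of the 19, 10 were higher at an unadjusted p under 0.05, where the share over all genes was 4.48%, and none passed the adjusted threshold (smallest edgeR adjusted p 0.472). TPPP3, a tubulin-binding protein of cilia, was at 1010, 1005, 777, 819 and 859 CPM in cows A to E and at 740, 733, 564, 752 and 692 CPM in heifers A to E. Every cow was above every heifer, by a log2 difference of 0.36 ± 0.11 (SE). RSPH1, a radial spoke protein, was at 191, 237, 140, 178 and 239 CPM in the cows and at 130, 165, 124, 148 and 139 CPM in the heifers, so that the groups overlapped through cow C. FOXJ1, the transcription factor that directs ciliogenesis, averaged 257 ± 27.2 against 206 ± 33.7 CPM (SD, n = 5 each; log2 difference 0.32 ± 0.12, SE). The axonemal dynein genes DNAH5 and DNAH9, which form the motors of the cilium, had log2 differences of 0.15 and 0.11 and were not at an unadjusted p under 0.05; these markers other than RSPH1 and TPPP3 were named after their values were seen.

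The direction of the ciliated markers was the same in every setting tried, but the number at an unadjusted p under 0.05 was not. All 19 markers were higher whichever library was left out. The number at an unadjusted p under 0.05 was 5 without heifer C, 6 without heifer B or cow B, 4 without the shallowest library of each group, and 3 without heifers B and C. The summed marker level was 9087 to 11992 CPM in the cows (median 11274) and 8521 to 10652 CPM in the heifers (median 9231), and the ranges overlapped. The markers of secretory cells had no common direction, with 5 of 13 higher, 8 lower and a median of -0.10. SPDEF, an epithelial transcription factor of secretory cells, was the only one of them at an unadjusted p under 0.05, and it was lower (4.7% over all genes). It averaged 77.7 ± 15.4 CPM in the cows and 104 ± 27.0 CPM in the heifers (SD, n = 5 each). In the ipsilateral isthmus of the same animals, 18 of 19 ciliated markers were higher in the cows, with a median of 0.28. Whether the ciliated values follow from a different share of ciliated cells in the scraped material was not tested.

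**Figure D3:**
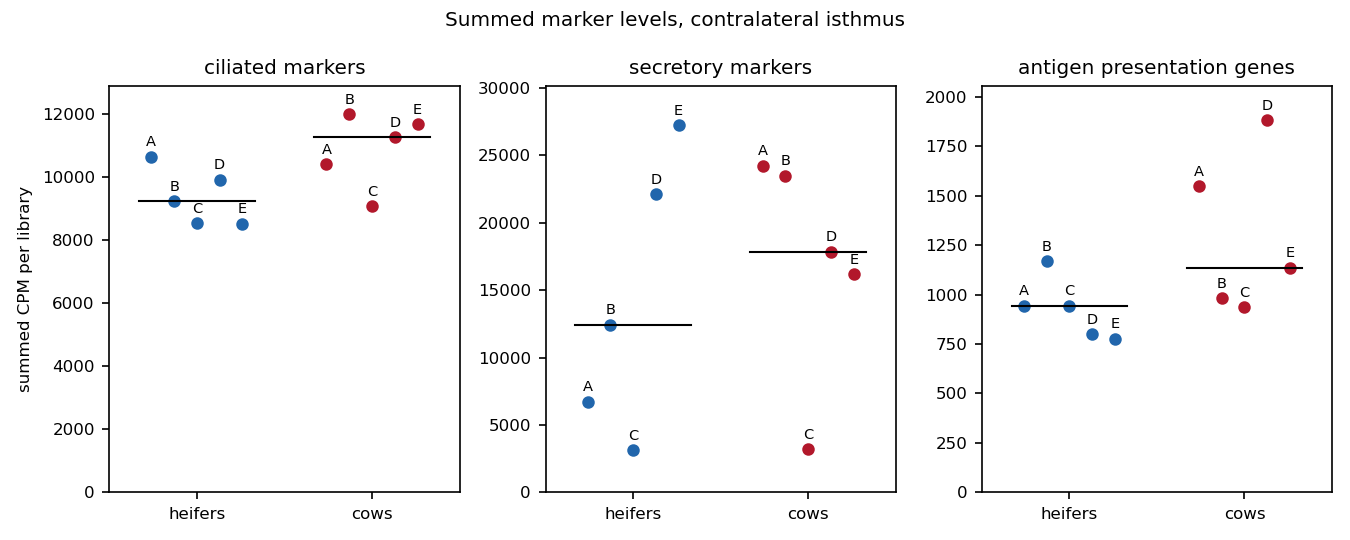
Summed CPM of the ciliated markers, the secretory markers and the antigen presentation genes in each contralateral library, with letters for animals and lines for group medians; each axis starts at 0. The ciliated sums overlap (8521 to 10652 in heifers, 9087 to 11992 in cows), and the secretory sums are lowest in heifer C, cow C and heifer A.

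Genes of class II histocompatibility and antigen presentation were higher in the cows in 10 of 14 cases, with a median log2 difference of 0.42. Of these, 5 were higher at an unadjusted p under 0.05 (4.48% over all genes) and none lower, and the smallest edgeR adjusted p was 0.467. CIITA, the master activator of class II genes, was at 10.8, 6.72, 8.96, 20.7 and 7.13 CPM in cows A to E and at 5.50, 1.79, 0.652, 4.42 and 3.56 CPM in heifers A to E. Every cow was above every heifer, with a log2 difference of 1.77 ± 0.47 (SE). PSMB9, a subunit of the immunoproteasome, averaged 17.1 ± 5.47 CPM in the cows and 10.1 ± 2.24 CPM in the heifers (SD, n = 5 each). The other 3, named after their values were seen, were B2M, the light chain of class I molecules (104 ± 22.1 against 76.0 ± 9.08 CPM, no overlap), CD74, the invariant chain (345 ± 199 against 203 ± 63.7 CPM), and BOLA-DMB, a peptide loading chain (28.1 ± 9.73 against 17.8 ± 6.09 CPM; SD, n = 5 each). Class II genes belong to a family of similar sequences, and reads could have been divided between members by the counting.

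The count of antigen presentation genes depended on the libraries fitted together. It was 5 in the comparison of 10 libraries, 3 when the lactating cows' contralateral libraries shared the fit, and 0 when all isthmus libraries did, and it was 3 without cow D or heifer C. The macrophage and dendritic cell markers summed to 59.1 to 121 CPM in the cows and 42.0 to 84.6 CPM in the heifers, and the T and NK cell markers to 35.4 to 92.3 and 29.2 to 63.1 CPM. The B and plasma cell markers summed to 8.22 to 34.8 and 5.50 to 10.4 CPM, with the highest value in cow D, which also had the most CIITA. IGJ, the joining chain of polymeric immunoglobulins, averaged 13.1 ± 10.3 CPM in the cows and 5.00 ± 1.99 CPM in the heifers (SD, n = 5 each). The part of immune cells in the antigen presentation values was not tested.

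Interferon-stimulated genes had no common direction, with 8 of 26 higher, 18 lower and a median of -0.19. IFI6 was at 112, 66.7, 97.8, 133 and 77.5 CPM in cows A to E and at 101, 165, 125, 176 and 532 CPM in heifers A to E. Heifer E held the highest value by a wide margin, and cows A and D lay above heifer A. In the complement list 11 of 16 genes were higher, with a median of 0.28. Only C3 was at an unadjusted p under 0.05, and it was higher (4.48% over all genes). C3, the central complement protein, was at 111, 352, 17.0, 296 and 120 CPM in the cows and at 14.4, 73.9, 10.2, 82.1 and 73.1 CPM in the heifers. Cows A, B, D and E were above every heifer, and cow C, a library poor in OVGP1, was among the lowest heifers, as heifers A and C were. The log2 difference of C3 was 1.81 ± 0.72 (SE; edgeR adjusted p = 0.511).

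SERPING1, the C1 inhibitor, averaged 5.07 ± 4.43 CPM in the cows and 2.75 ± 1.01 CPM in the heifers (SD, n = 5 each), a difference smaller than the spread of the cows. C1S, a protease of the classical pathway, was at 1.49 to 6.53 CPM in the cows and 1.003 to 2.39 CPM in the heifers and had too few reads for the edgeR test. BPIFA1, a secreted antimicrobial protein, was likewise below the filter, at 0 to 2.09 and 0.344 to 2.61 CPM. DMBT1, a mucosal scavenger receptor protein, had a log2 difference of 2.45 ± 0.92 (SE), which was 0.79 without cow A (760 CPM). The other cows were at 19.98 to 113 CPM and the heifers at 5.82 to 69.7 CPM. In its list of mucosal defence and oviduct secretory products 8 of 17 genes were higher and 9 lower. DMBT1 was the only one higher at an unadjusted p under 0.05 (4.48% over all genes). ANG, a secreted ribonuclease, was the only one lower at that level (4.7% over all genes). Among chemokines and inflammatory mediators 6 of 12 genes were higher and 6 lower. Only NFKBIZ was at an unadjusted p under 0.05, and it was higher (4.48% over all genes). It averaged 78.9 ± 6.67 against 62.8 ± 13.9 CPM (SD, n = 5 each).

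Genes of the endoplasmic reticulum (ER) and the secretory machinery were lower in the cows in 27 of 30 cases, by a median of -0.15, and 4 of them were lower at an unadjusted p under 0.05, where the share over all genes was 4.7%. HYOU1, a chaperone of the ER lumen, was at 91.1, 72.3, 81.6, 79.7 and 66.8 CPM in cows A to E and at 99.4, 79.7, 99.7, 108 and 125 CPM in heifers A to E. The groups overlapped through heifer B, and the log2 difference was -0.39 ± 0.12 (SE). DNAJC3, a co-chaperone of the ER, averaged 140 ± 11.8 against 167 ± 15.6 CPM (SD, n = 5 each). KDELR2, which returns ER proteins from the Golgi, and SSR1, a subunit of the translocon-associated complex, had log2 differences of -0.23 and -0.21. Leaving out a library in turn left 20 to 28 of the 30 genes lower and 1 to 7 at an unadjusted p under 0.05, with the lowest count without heifer D and the highest without cow A. Without heifers B and C, 25 were lower and 9 of them at an unadjusted p under 0.05. In the ipsilateral isthmus of the same animals, 6 of 30 ER genes were higher in the cows, with a median of -0.23.

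Transport and metabolic lists held members in both directions. In the amino acid list 15 of 25 genes were lower, 4 of them at an unadjusted p under 0.05 (4.7% over all genes), and SLC1A3, a glutamate transporter named after its values were seen, was higher at that level (16.8 ± 4.25 against 12.3 ± 2.62 CPM; SD, n = 5 each; 4.48% over all genes). SLC38A1, a glutamine transporter, was at 21.9, 32.6, 31.0, 28.5 and 37.6 CPM in cows A to E and at 45.4, 45.7, 49.96, 49.0 and 38.2 CPM in heifers A to E, and the groups met closely without overlapping. ODC1, the first enzyme of polyamine synthesis, averaged 13.6 ± 2.04 against 20.4 ± 4.11 CPM (SD, n = 5 each) and did not overlap either. The other 2 that were lower were SLC7A5, a transporter of large neutral amino acids (log2 difference -1.13), and GAT. In the ion and water transport list 11 of 20 were lower, 4 of them at an unadjusted p under 0.05 (4.7% over all genes). These were SCNN1A, ATP1B2, BSG and SLC12A2. SCNN1A, a subunit of the epithelial sodium channel, averaged 61.6 ± 12.9 against 89.1 ± 23.7 CPM (SD, n = 5 each). ATP1B2, a subunit of the sodium pump, averaged 31.0 ± 12.97 against 49.1 ± 12.4 CPM (SD, n = 5 each). Of 31 genes of fatty acid oxidation and lipid handling, 21 were lower and 4 of them at an unadjusted p under 0.05 (4.7% over all genes), which were PPARA, FABP3, LRP2 and PPARD; FADS2, a fatty acid desaturase, was higher at that level. PPARA, the nuclear receptor that drives fatty acid oxidation, averaged 21.7 ± 3.37 against 29.3 ± 3.92 CPM (SD, n = 5 each). FABP3, a fatty acid carrier, was at 39.7 CPM in heifer C, 2.13 to 9.40 CPM in the other heifers and 0 to 4.97 CPM in the cows.

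The cholesterol list held 0 of 23 genes at an unadjusted p under 0.05 by edgeR, with 10 higher, 13 lower and a median of -0.03. Its smallest p-values were those of PMVK (10.3 ± 3.802 against 17.2 ± 7.91 CPM) and SC5D (53.0 ± 7.42 against 60.2 ± 4.31 CPM; SD, n = 5 each). Among 25 genes of glycolysis and pyruvate metabolism, HK2, a hexokinase, was the only one at an unadjusted p under 0.05, with 11.2 ± 4.65 against 19.9 ± 7.17 CPM (SD, n = 5 each). The 32 genes of the tricarboxylic acid cycle and respiratory chain had a median of 0.02, with COX4I1 and CYC1 higher and OGDH and SUCLA2 lower at an unadjusted p under 0.05. COX4I1, a subunit of cytochrome oxidase, averaged 69.8 ± 14.2 against 51.5 ± 5.57 CPM (SD, n = 5 each). In the antioxidant list 15 of 28 were higher, 2 of them, PRDX2 and PRDX3, at an unadjusted p under 0.05. Ribosomal protein genes were higher in 24 of 33 cases with a median of 0.09, 2 of them at an unadjusted p under 0.05. For the lists of this paragraph, the shares over all genes at that level were 4.48% higher and 4.7% lower.

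Receptors for ovarian steroids were abundant in both groups. PGR, the progesterone receptor, was at 79.5, 68.7, 63.3, 61.4 and 64.9 CPM in cows A to E and at 179, 67.1, 64.5, 77.7 and 83.3 CPM in heifers A to E. Apart from heifer A the groups lay close together, and the log2 difference was -0.48 ± 0.25 (SE; edgeR adjusted p = 0.580). ESR1, the oestrogen receptor alpha, averaged 475 ± 32.3 CPM in the cows and 432 ± 98.3 CPM in the heifers (SD, n = 5 each), with an interval of -0.19 to 0.46 for the log2 difference (95%). Of 19 steroid receptor and steroid-responsive genes, 13 were lower, and ZBTB16 and FKBP5 were so at an unadjusted p under 0.05 (4.7% over all genes). FKBP5, a co-chaperone of steroid receptors induced by glucocorticoids and progestins, was at 488, 434, 665, 634 and 585 CPM in the cows and at 556, 959, 1224, 590 and 746 CPM in the heifers. Its highest values were those of heifers B and C, without which the log2 difference moved from -0.54 to -0.17. ZBTB16, a transcription factor also induced by these hormones, averaged 23.7 ± 7.48 against 46.9 ± 22.4 CPM (SD, n = 5 each). Of 8 prostaglandin genes 6 were higher and 2 lower, and none was at an unadjusted p under 0.05.

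Of 24 genes of insulin-like growth factor and EGF family signalling, 8 were higher and 16 lower, with DUSP6 and IGF1R lower at an unadjusted p under 0.05 (4.7% over all genes). DUSP6, a phosphatase that dampens ERK signalling, was at 16.0, 18.6, 29.1, 17.8 and 15.9 CPM in cows A to E and at 42.0, 34.0, 34.5, 28.3 and 32.0 CPM in heifers A to E, with cow C just inside the range of the heifers. Its adjusted p was 0.416 by edgeR and 0.0491 by DESeq2. Of 21 WNT, TGF-beta and BMP genes 9 were higher and 12 lower, 4 and 1 of them at an unadjusted p under 0.05, where the shares over all genes were 4.48% and 4.7%. SFRP2, a secreted WNT modulator, averaged 23.6 ± 12.3 against 10.3 ± 2.89 CPM (SD, n = 5 each). Proliferation genes were higher in 19 of 21 cases with a median of 0.26, but only TYMS, thymidylate synthase, was higher at an unadjusted p under 0.05 (18.1 ± 4.09 against 11.9 ± 2.32 CPM; SD, n = 5 each). CCNB1, cyclin B1, went the other way, at 297 ± 110 CPM in the cows and 503 ± 139 CPM in the heifers (SD, n = 5 each). In the circadian clock list PER2 was the only gene at an unadjusted p under 0.05 (14.7 ± 2.89 against 25.9 ± 12.4 CPM; SD, n = 5 each), with its highest values in heifers B and C. Of 29 immediate early and heat shock genes 17 were higher and 12 lower. Among them ZFP36, which destabilizes inflammatory mRNAs, was lower without overlap (22.1 ± 1.47 against 35.5 ± 9.01 CPM; SD, n = 5 each).

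The extracellular matrix list held genes in both directions, 4 higher and 2 lower at an unadjusted p under 0.05 among 28 tested, where the shares over all genes were 4.48% and 4.7%. LAMA2, a laminin chain of basement membranes, was at 102, 69.8, 252, 71.1 and 88.2 CPM in cows A to E and at 183, 325, 163, 244 and 316 CPM in heifers A to E. Cow C alone lay within the range of the heifers, and without it the log2 difference went from -1.07 to -1.57 and passed the threshold (edgeR adjusted p = 0.0451). Without cow C and heifer C the adjusted p of LAMA2 was 0.00935. TIMP1, an inhibitor of matrix metalloproteinases, averaged 17.1 ± 8.18 against 35.8 ± 17.4 CPM (SD, n = 5 each), with heifer C highest at 66.7 CPM. The genes in the other direction were FN1, COL1A2, LAMB1 and COL3A1, products of stromal and basement membrane matrix. Of these, COL1A2 averaged 20.4 ± 6.20 against 11.95 ± 4.94 CPM and COL3A1 5.15 ± 1.91 against 2.02 ± 1.84 CPM (SD, n = 5 each), while the fibroblast markers as a whole summed to 27.4 to 366 CPM in the cows and 22.4 to 108 CPM in the heifers. Cow A alone held the highest fibroblast sum, and the other cows were at 27.4 to 83.4 CPM, below the highest heifer. Of 36 adhesion and guidance genes 18 were higher and 18 lower, and among them RELN, a large secreted guidance protein, averaged 10.3 ± 5.50 against 2.90 ± 2.06 CPM (SD, n = 5 each).

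**Figure D4:**
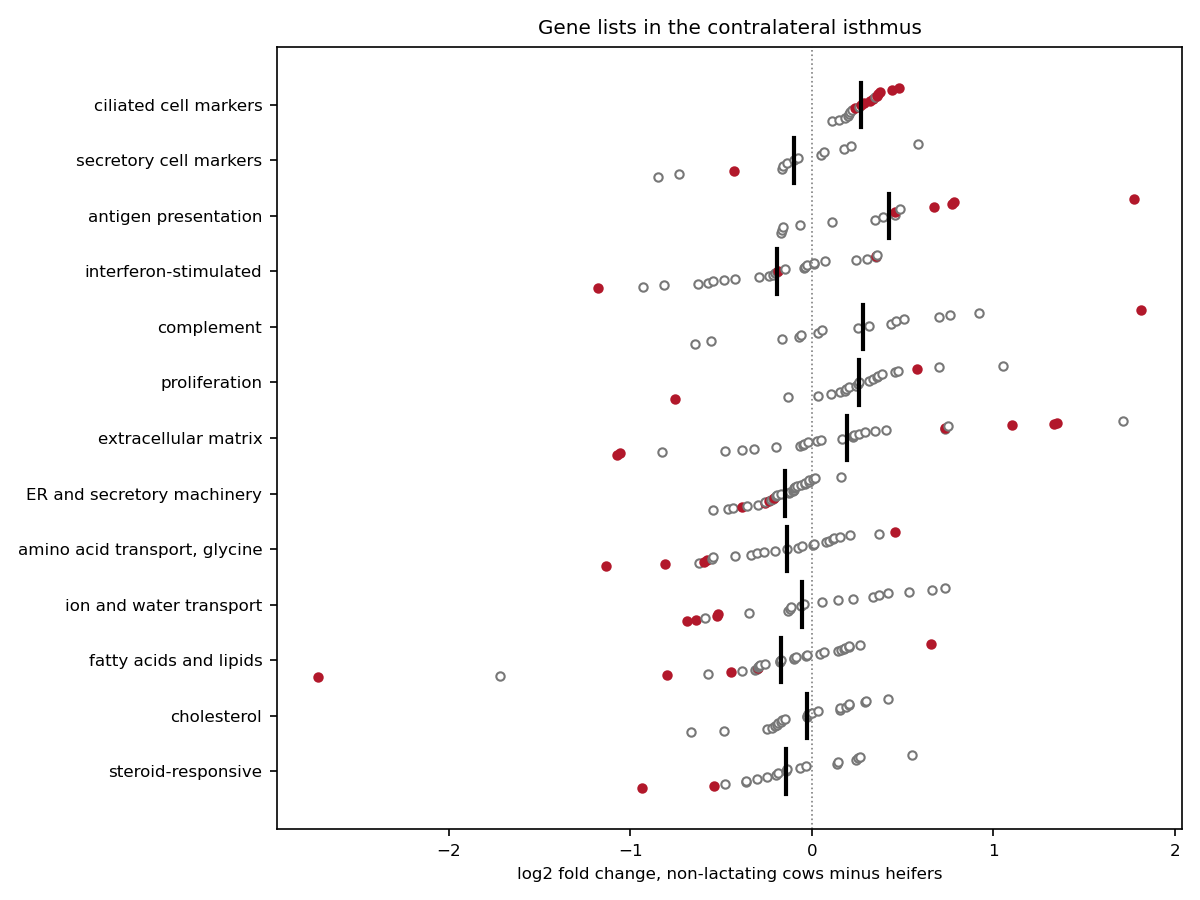
Log2 differences (non-lactating cows minus heifers) of the tested members of 13 gene lists, with filled points for an unadjusted p under 0.05 by edgeR and vertical bars for list medians. The ciliated markers all lie above 0 (median 0.27), as do most proliferation genes (median 0.26). Most ER genes lie below 0 (median -0.15), while the other lists spread to both sides.

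The same animals gave a reference on the other side. In the ipsilateral isthmus edgeR called 1 of 13703 genes (0.0073%), which was GAT, a glycine acyltransferase. DESeq2 called 235 genes there, 98 higher and 137 lower in the cows, against 36 contralaterally. GAT was at 41.1, 7.75, 45.6, 43.9 and 15.7 CPM in the contralateral isthmus of cows A to E and at 77.1, 49.7, 38.7, 70.2 and 42.5 CPM in that of heifers A to E. Cows A, C and D lay within the range of the heifers there and cows B and E below it, and the contralateral log2 difference was -0.81 ± 0.37 (SE; edgeR adjusted p = 0.542). The ipsilateral log2 difference was -1.83 ± 0.14 (SE; edgeR adjusted p = 9.14e-05). With the animal as a block, the contralateral difference was less negative than the ipsilateral one by 0.90 ± 0.34 (SE, log2), with an adjusted p of 0.956 for this difference between sides. FAT4, an atypical cadherin, differed by -0.65 ± 0.31 contralaterally and -1.54 ± 0.35 ipsilaterally (SE), and the adjusted p of that difference was 0.968 with the block.

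The 20 genes of smallest p in each direction on the ipsilateral side were then read in the contralateral isthmus. Of the 20 higher in the cows ipsilaterally, 18 were tested contralaterally, all 18 were higher and 9 were so at an unadjusted p under 0.05 (4.48% over all genes). Their median log2 difference was 0.43 contralaterally and 1.002 ipsilaterally. All 20 that were lower ipsilaterally were lower contralaterally, 15 of them at an unadjusted p under 0.05 (4.7% over all genes), with medians of -0.61 and -1.03. These genes were chosen on other libraries but from the same 10 animals, so that the sides are not independent samples. Genes picked for a small ipsilateral p tend to have ipsilateral differences that are too large, so that the smaller contralateral medians are no measure of a weaker difference there. Without heifers B and C, 37 of the 38 kept their direction and 13 of the 38 were at an unadjusted p under 0.05 in that direction, and that number was also 13 without cow B and 14 without the shallowest library of each group.

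The values of single genes on both sides are given next. RELN had log2 differences of 1.71 ± 0.47 contralaterally and 1.89 ± 0.32 ipsilaterally (SE). SLC31A1, a copper transporter, was at 171, 189, 255, 276 and 205 CPM in the contralateral isthmus of cows A to E and at 280, 448, 392, 392 and 292 CPM in that of heifers A to E. Every cow was below every heifer, with a log2 difference of -0.72 ± 0.16 (SE; edgeR adjusted p = 0.416, DESeq2 adjusted p = 0.0276). OSBPL8, an oxysterol-binding protein of the ER, averaged 157 ± 29.1 against 247 ± 53.3 CPM contralaterally and LPHN3, an adhesion receptor, 226 ± 56.3 against 329 ± 36.2 CPM (SD, n = 5 each). Of the genes higher in the cows, CCDC13, a centriolar satellite protein, did not overlap between groups (101 ± 14.2 against 75.4 ± 6.24 CPM), and CDH23, a cadherin, averaged 47.6 ± 8.17 against 35.6 ± 4.47 CPM (SD, n = 5 each). ERBB4, a receptor of neuregulins, had a log2 difference of 0.07 ± 0.15 contralaterally and 0.91 ± 0.14 ipsilaterally, and MUC15, a membrane mucin, of -0.33 ± 0.19 and -1.37 ± 0.25 (SE), both named after their values were seen. The adjusted p of the difference between sides was 0.940 for ERBB4 and 0.956 for MUC15 by edgeR with the animal as a block.

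**Figure D5:**
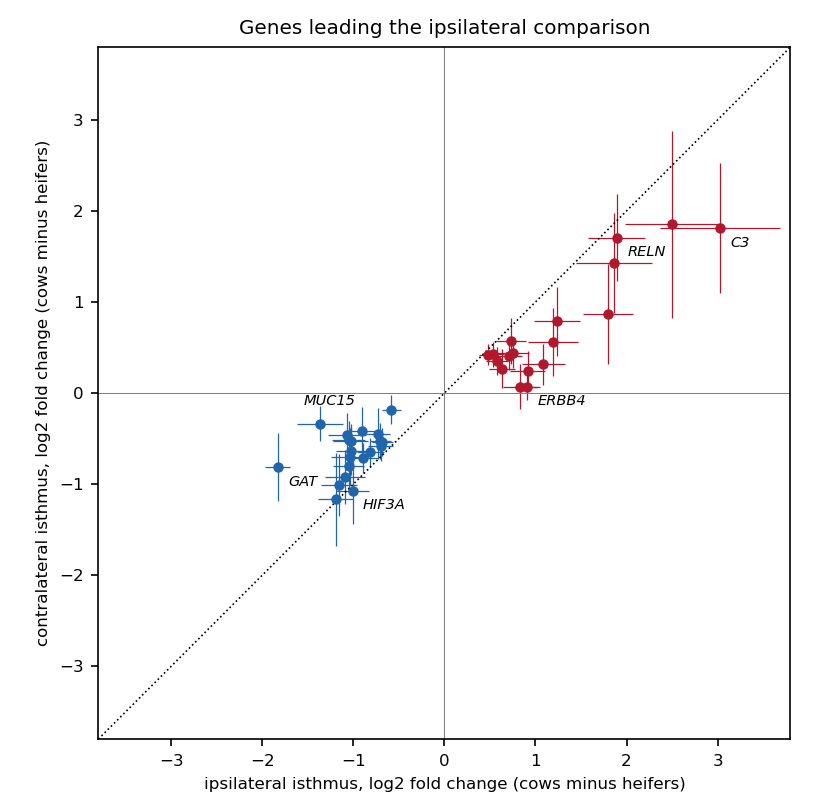
Log2 differences (cows minus heifers) of 38 genes chosen by ipsilateral p, ipsilateral on the x axis and contralateral on the y axis, with bars for SE and a dotted line of equality; red points were higher and blue points lower ipsilaterally. All 38 lie on the same side of 0 on both axes, and most lie nearer to 0 contralaterally, as a choice by ipsilateral p favours.

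A test of whether the difference between cows and heifers itself differed between sides called 0 of 14476 genes (0%) by edgeR, with 444 at an unadjusted p under 0.05 (3.07%). With the animal as a block, edgeR again called 0, with 733 at an unadjusted p under 0.05 (5.06%) and a smallest adjusted p of 0.313. CHKA differed by -0.14 ± 0.23 ipsilaterally, SIK1 by -0.13 ± 0.28 and SLC38A1 by 0.04 ± 0.22 (log2, SE). The adjusted p of the difference between sides was 0.956 or higher for each of these with the block, so that a difference between the sides was not shown. FMNL2 and GJB5 had ipsilateral log2 differences of -1.14 ± 0.31 and -1.06 ± 0.27 (SE).

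Lactating cows, of which 4 had contralateral isthmus libraries, give the third level for these genes, and their comparison with the same heifers called 0 of 13832 genes (0%) by edgeR. The comparisons share the heifer libraries, so that the values are only set side by side. FMNL2 averaged 12.02 ± 6.19 CPM, SRGAP3 146 ± 19.5 CPM, MAP4K4 126 ± 17.5 CPM and SLC38A1 30.8 ± 7.26 CPM in the lactating cows (SD, n = 4). SIK1 averaged 103 ± 48.3 CPM and CHKA 17.3 ± 7.92 CPM in them (SD, n = 4). CIITA averaged 34.7 ± 41.4 CPM and C3 604 ± 518 CPM (SD, n = 4), with a spread as large as the mean or nearly so.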

How the data were processed

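Epithelial cells were scraped from the isthmus, and strand-specific single-end libraries were sequenced. The deposited read counts per gene were made by the authors, who trimmed adapters and poly-A, aligned reads to the bovine build Btau_4.6.1 with TopHat2 2.0.13 and counted them with HTSeq 0.6.1 in its strict intersection mode; bcl2fastq 1.8.4 made the reads. Gene symbols were used as deposited, and lines that name no gene (unassigned reads) were left out of library sizes and tests.

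Genes were filtered with filterByExpr at a minimum count of 10 and tested in R 4.3.3 with edgeR 4.0.16 (TMM scaling, quasi-likelihood F-test, Benjamini-Hochberg adjustment, threshold 0.05) on the 10 libraries. DESeq2 1.42.0 was the alternative, and the study used an earlier version of DESeq2. CPM values were scaled over all isthmus libraries, so they can differ slightly from the fitted fold changes. The difference between sides was tested as an interaction, with and without the animal as a block: sides share animals, and the deviations of the 2 sides of an animal correlated at -0.02 to 0.56 (median 0.38), and the other side of the same animal was the best match for 7 of 10 animals, not for cow C, cow E and heifer C. No 2 libraries of a group agreed within sampling noise (at least 5.20 chi-square per degree of freedom over 20 pairs).

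Named genes were the 10 of smallest p in each direction with at least 5 CPM, the 2 of smallest p in each list, 10 genes in every case (GAT, FAT4, C1S, C3, SERPING1, CXCL10, BPIFA1, PGR, ESR1, OVGP1) and 3 in each direction of the ipsilateral leaders. Every other gene given by name was named after its values were seen. Of 847 listed symbols, 793 were found as such, 6 under another name and 48 were not found. The comparison, the lists and the rule were chosen with earlier results of these data known. Steps were tested on simulated counts. Sequences and coordinates were not used here, and 1 named gene is not reported here.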

Additional observations from a re-analysis of the deposited data

Results flagged for a closer look

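Among 186 sets of 5 values tested with Dixon's criterion on log2 CPM, 14 held a sample far from the other 4 of its group; chance alone flags about 1 in 20 such sets. In cow C, OVGP1 was at 37.5 CPM (other cows 9474 to 15332), PKHD1L1 at 0.373 CPM (36.2 to 88.2), SPDEF at 52.1 CPM (79.1 to 93.0), SKP2 at 45.2 CPM (29.5 to 31.4) and DUSP6 at 29.1 CPM (15.9 to 18.6). In cow D, P2RY2 was at 33.2 CPM (17.6 to 20.7), ARMC12 at 71.1 CPM (37.8 to 44.8) and PXYLP1 at 30.8 CPM (45.2 to 50.6). TGFBR2 was at 31.9 CPM in cow E (27.1 to 27.7 in the other cows). In heifer A, PGR was at 179 CPM (64.5 to 83.3 in the other heifers), PTGES3 at 247 CPM (167 to 179) and C1QC at 1.03 CPM (6.42 to 9.85). In heifer C, TIMP1 was at 66.7 CPM (24.4 to 30.1) and TPPP3 at 564 CPM (692 to 752).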

How the results depend on the processing

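The contralateral count of 0 genes called was also 0 with RLE size factors, both other filters, robust dispersions, thinned counts and the larger fits; it was 36 with DESeq2, 30 at an unadjusted p under 0.001, 0 to 4 when 1 animal was left out (4 without cow C), and 3 without cow C and heifer C. The 1240 genes at an unadjusted p under 0.05 became 824 without the shallowest library of each group and 725 without heifers B and C; with all isthmus libraries in 1 fit they were 475 higher and 724 lower, against 605 and 635. LAMA2 passed the threshold without cow C and without cow C and heifer C. The cause was not tested for any of these.

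OVGP1 changed sign, from 0.18 to -0.070 without the shallowest libraries and -0.32 without heifers B and C, and ranged from -0.15 to 0.67 when 1 animal was left out. ESR1 was at -0.067 without heifers B and C, and SYNPO2 ranged from -0.012 to 0.625 when 1 animal was left out. Of 1964 alternative values of 94 named genes, 1937 kept direction and side of the threshold, 20 passed it only in the alternative (18 of them with DESeq2) and 7 changed sign.

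The ipsilateral count of 1 was 235 with DESeq2, 27 without a filter, 4 with thinned counts, 96 at an unadjusted p under 0.001, and 1 to 19 when 1 animal was left out (19 without cow A, 7 without heifer D, 3 without cow C). The interaction count of 0 was 0 with the replicate block (animal) in edgeR, 2 with that block in DESeq2, and 3 at an unadjusted p under 0.001. No paired analysis was possible for cows against heifers because they are different animals and the columns carry no replicate number. The libraries left out in pairs were chosen after seeing the data.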

Other observations

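With the animal as a block, DESeq2 called 2 genes whose difference between cows and heifers differed between the sides, both named after their values were seen. AKAP12, a scaffold protein of protein kinase A, averaged 75.1 ± 40.3 CPM in the cows and 61.5 ± 19.7 CPM in the heifers contralaterally, and 21.8 ± 5.998 against 51.1 ± 24.3 CPM ipsilaterally (SD, n = 5 each). FAM13C averaged 95.9 ± 42.2 against 77.2 ± 13.7 CPM contralaterally and 53.3 ± 18.9 against 84.3 ± 22.8 CPM ipsilaterally (SD, n = 5 each). The contralateral minus ipsilateral difference was 1.36 ± 0.24 for AKAP12 and 0.90 ± 0.15 for FAM13C (log2, SE), with an adjusted p of 0.313 for each by edgeR and of 0.00567 and 0.00782 by DESeq2.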
